A study of Mus musculus with 16 samples.

Results

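Of 16 RNA libraries made from the muscle layer of the mouse colon, 6 held high counts of the epithelial gene Lgals4 and were taken as mucosa-rich, 8 held low counts and were taken as mucosa-poor, and 2 lay between and were left out. The limits were set on Lgals4 as its counts over all counted reads of the library (CPM of the total), at 200 or more for the rich and below 75 for the poor class. The classes were therefore chosen by a measured value of the same libraries, and every difference between them below is a description with no test. In the 6 mucosa-rich libraries, 495 genes lay above all 8 mucosa-poor libraries by more than 1 on the log2 scale, led by genes of goblet cells, colonocytes and the epithelial transcription factors. In the same libraries 10 genes (0.0537% of those compared, beside 2.66% above) lay below by as much, among them the endothelial receptor Tek. So small a count cannot be told from false calls, since the same rule made 18, in both directions together, in simulated counts with a wide spread. All 17 smooth muscle genes, all 22 enteric neuron genes and all 7 mesothelial genes that were followed had lower means in the mucosa-rich libraries, with overlap between the classes.

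The wall of the colon is built in layers. A single-layered epithelium of absorptive colonocytes, mucus-secreting goblet cells, hormone-secreting enteroendocrine cells and crypt stem cells lines the lumen, over a lamina propria with fibroblasts and immune cells. The muscularis propria lies outside it and holds smooth muscle, the myenteric plexus of neurons and glia, and the interstitial cells of Cajal, which pace contraction. A mesothelium covers the outer surface. The longitudinal muscle and myenteric plexus (LMMP) is peeled off by microdissection, and epithelial transcripts in it can come from mucosa that was carried over. Lgals4 (galectin-4) and Krt8 (keratin 8) are made by intestinal epithelial cells and not by smooth muscle.

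The LMMP was taken from 2 segments, proximal and distal colon, of Ednrb-/- mice (HSCR) and WT (Ednrb +/+) littermates, with 4 libraries for each genotype and segment. The HSCR mice carried the Ednrb tm1Ywa allele, which disrupts the endothelin B receptor, on a hybrid C57BL6/J-129Sv background. Mice of both sexes were 2 to 4 weeks old. The study describes the distal colon of HSCR mice as aganglionic, and reports sparse, small ganglia in its sections. The labels of the distal libraries name the distal colon in the titles and the proximal colon in the tissue entry, and the titles were followed. All 16 libraries carry the same batch label. The library names of replicates 1 and 2 share a number across the groups, and those of replicates 3 and 4 have other forms. What the names stand for is not stated. Of the 8 libraries of replicates 1 and 2, 4 were mucosa-rich, and of the 8 of replicates 3 and 4, 2 were. It is not stated which libraries came from the same mouse, so that p-values below measure the spread between libraries only.

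The counted reads numbered 21384372 to 45831881 per library. Mitochondrial genes took from 4.32% to 34.6% of them in the mucosa-poor libraries and from 5.93% to 49.8% in the mucosa-rich ones, with the highest share in WT proximal 1. Ednrb held 12.2 to 67.7 CPM in WT and 5.54 to 97.0 CPM in HSCR libraries (scaled by TMM factors, as are all CPM below unless said to be of the total), and the library labelled HSCR distal 1 held the highest. The posterior gene Hoxd13 held 0.629 CPM in the library labelled HSCR distal 1 and 125 CPM in that labelled HSCR proximal 1, against the segment in their labels. The smooth muscle list summed to 44870 CPM or more in every library but HSCR proximal 2, which held 8540 CPM.

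Lgals4 was at 334 CPM of the total in WT proximal 1, 638 in HSCR proximal 3, 683 in WT distal 1, 683 in HSCR distal 2, 1324 in HSCR distal 3 and 4507 in HSCR proximal 2. The mucosa-poor libraries ran from 0.0631 CPM of the total in WT proximal 4, where 2 reads were counted, to 57.4 in HSCR distal 1, just inside the lower limit. The libraries left out held 92.8 CPM of the total in HSCR proximal 1 and 103 in WT distal 3. Lgals4 chose the classes and supports nothing below. The mucosa-rich class held 4 HSCR and 2 WT libraries, 3 of them proximal and 3 distal, and the mucosa-poor class held 3 HSCR and 5 WT libraries, 4 of them proximal and 4 distal. Each of the 4 groups had at least 1 library of each class.

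**Figure D1:**
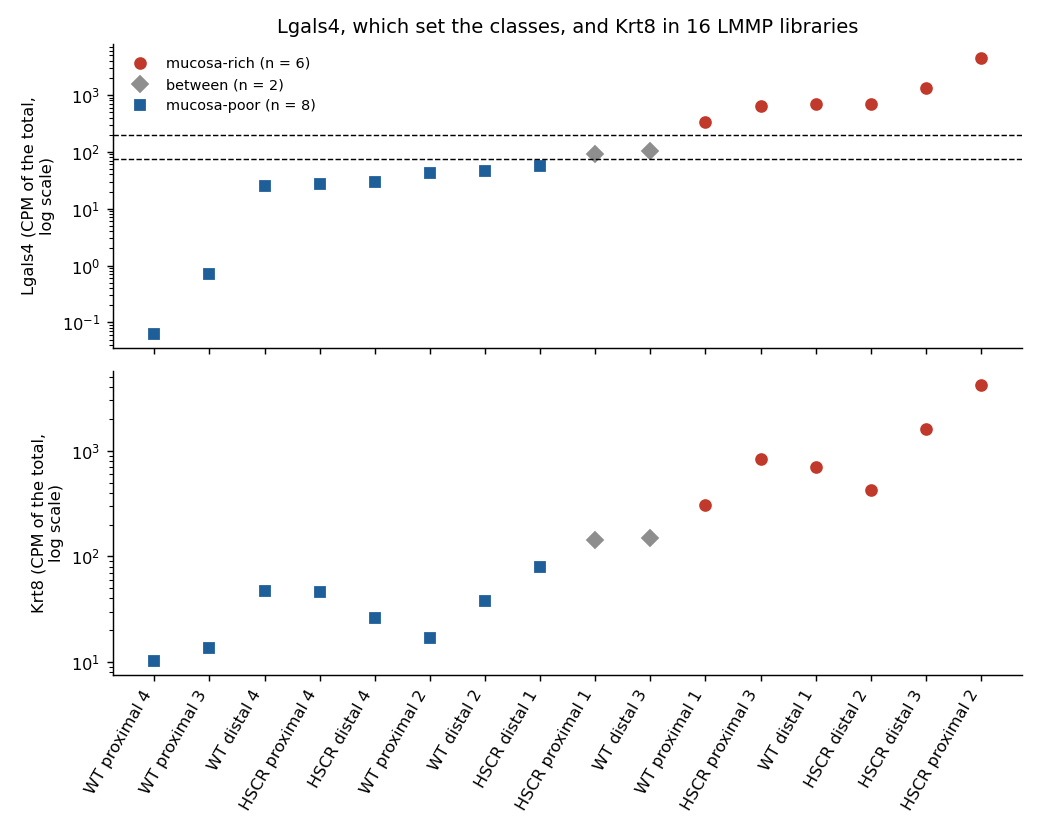
Lgals4 and Krt8 (CPM of the total, log axes) in each of the 16 LMMP libraries, ordered by Lgals4, with the limits of 75 and 200 CPM as dashed lines in the upper panel. Krt8 was at 308 CPM or more in the 6 mucosa-rich libraries, at 80.1 or less in the 8 mucosa-poor ones, and at 143 and 150 in the 2 between.

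Krt8, a keratin of simple epithelia (ENSMUSG00000049382, mm39 chr15:101905133-101912917, minus strand), followed Lgals4. The mucosa-rich libraries held 361 CPM in HSCR distal 2, 496 in WT proximal 1, 706 in HSCR proximal 3, 736 in WT distal 1, 1490 in HSCR distal 3 and 3830 in HSCR proximal 2. The mucosa-poor libraries held 12.9 CPM at the lowest, 29.8 at the median and 77.9 at the highest. The classes did not overlap, and the mean log2 CPM differed by 4.98 (SD 1.23 in 6 rich and 0.98 in 8 poor libraries). Classes drawn by the rank of Krt8 held the same 6 and the same 8 libraries. Reads of Krt8 and of its processed copy Krt8-ps, which was also called higher, may have been split between them in counting.

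Across the 18619 genes with enough counts to be compared, a gene was called higher when all mucosa-rich libraries lay above all mucosa-poor libraries and the means differed by more than 1 on the log2 scale, and lower in the opposite case. Called higher were 495 genes (2.66% of those compared) and called lower 10 (0.0537%), together 2.71%. Without the limit on the size, 514 genes (2.76%) were higher and 19 (0.102%) lower with no overlap. Each of the 4 groups of genotype and segment held both classes, so that a call fixes the direction within each group. Over all genes, 3099 (16.6%) were higher and 3428 (18.4%) lower in the mucosa-rich libraries in all 4 groups. Of the 495 genes, 476 were protein coding. Their median difference was 5.36, or 5.18 with the 16 genes that had at most 3 counts in every mucosa-poor library set to the limit that 3 counts per library allow. The median over all genes was -0.02. Without HSCR proximal 2, 483 genes were called higher and 10 lower, and 481 and 9 of these were among the 495 and the 10. Without the libraries labelled HSCR proximal 1 and HSCR distal 1, 571 were called higher and 16 lower; all but 2 of the 495 and 9 of the 10 were among them.

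The 495 genes together took between 2.01% of the non-mitochondrial counts in HSCR distal 2 and 10.8% in HSCR proximal 2. In the mucosa-poor libraries they took 0.225% to 0.402%, and the highest of these was HSCR distal 1. HSCR proximal 2 was the highest of the mucosa-rich libraries for 431 of the 495 genes and HSCR distal 3, with 4.21% of its counts in them, for 41. The other mucosa-rich libraries took 2.01% to 2.28%.

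**Figure D2:**
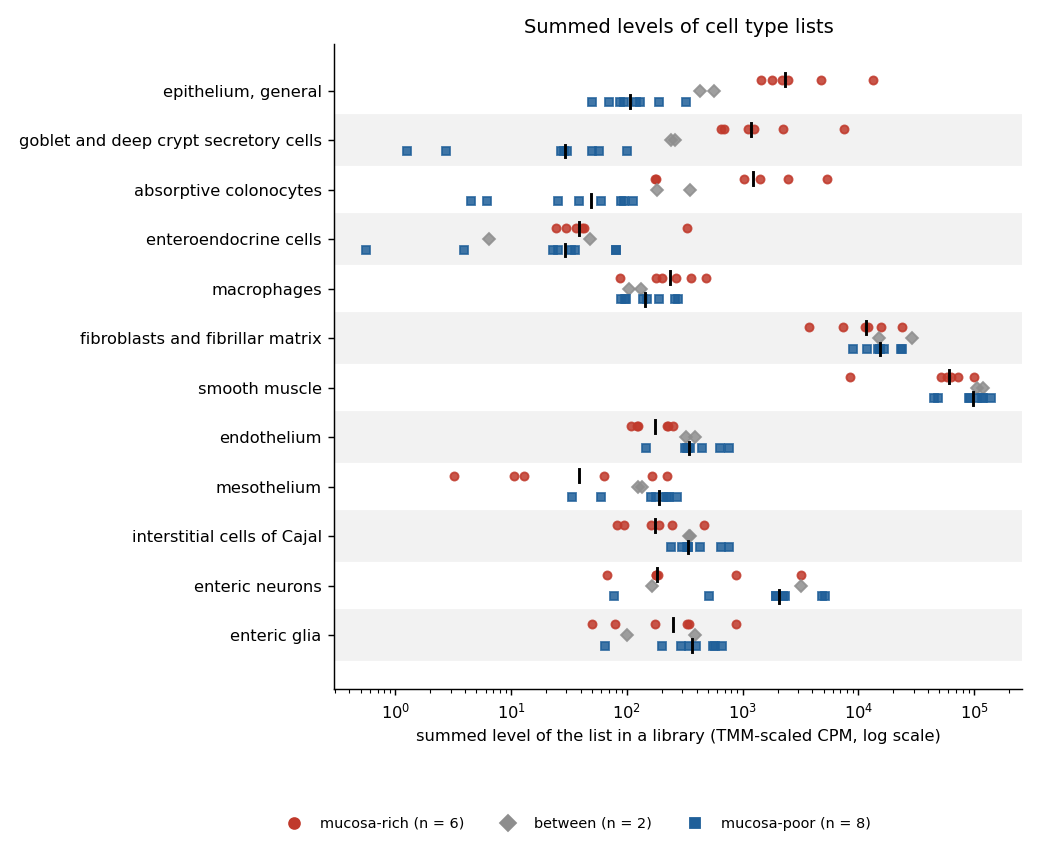
Summed CPM (log axis) of 12 cell type lists in each mucosa-rich (circles), between (diamonds) and mucosa-poor (squares) library, with vertical bars at the class medians. The general epithelial list ran from 1427 to 13420 CPM in the rich and from 50.3 to 324 in the poor libraries, while the lists of muscle, vessels, mesothelium, neurons and glia overlapped between the classes.

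General epithelial genes were higher almost throughout. Of 18, 17 were called higher, with a median difference of 6.04, and Cdx2 was the exception. The list summed to 1427 CPM in HSCR distal 2, 1801 in WT proximal 1, 2178 in WT distal 1, 2440 in HSCR proximal 3, 4725 in HSCR distal 3 and 13420 in HSCR proximal 2, against 50.3 to 324 CPM in the mucosa-poor libraries. Krt19, another keratin of simple epithelia, held 255 to 2470 CPM in the rich and 20.8 to 98.0 in the poor libraries. Epcam, an adhesion molecule of the basolateral membrane, held 121 to 1470 CPM against 0.617 to 32.1. Cdh1 (E-cadherin) held 69.5 to 486 CPM against 0.0864 to 12.3, and the microvillus protein Vil1 held 51.3 to 484 CPM against 0 to 9.86. Krt18, the partner of Krt8 in filaments, had the smallest difference of the list, 2.92 (SD 1.15 in rich and 0.72 in poor libraries), with 5.16 to 16.4 CPM in the mucosa-poor libraries.

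The transcription factors that specify intestinal epithelium were also among the genes called higher. Differences of genes at or near 0 depend on the count of 0.5 that was added before the logarithm. Hnf4a, a nuclear receptor of gut epithelium, held 69.7 to 420 CPM in the rich and 0 to 6.6 in the poor libraries. Foxa1, Foxa2, Foxa3 and Hnf4g, further factors of gut epithelium chosen after their values were seen, were also called higher. Of the caudal factors that set intestinal identity, Cdx1 was called higher with 40.4 to 364 CPM against 0 to 8.03. Cdx2 was not, since WT distal 1 held 1.47 CPM and HSCR distal 1, a mucosa-poor library, 6.86. The 3 mucosa-rich proximal libraries held 56.4 to 435 CPM of Cdx2 and the 3 distal ones 1.47 to 10.1.

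Promoters of 2 genes, an epithelial and a muscle gene chosen after their values were seen, are shown as examples. Krt20, a keratin of mature surface colonocytes, held 38.6 to 410 CPM in the rich and 0 to 9.88 in the poor libraries. Myl9, the regulatory light chain of smooth muscle myosin, stood for the muscle genes with 1237 to 5804 CPM against 3697 to 11180. Each run below is the 250 bases before a transcript start in RefSeq on GRCm38.p6, read 5′ to 3′ on the gene's strand, with the matched letters in capitals. The capitals mark TATAAA in Krt20 (chr11:99438154-99438403, minus strand) and a CArG box, the element bound by serum response factor, in Myl9 (chr2:156775214-156775463, plus strand).
Krt20: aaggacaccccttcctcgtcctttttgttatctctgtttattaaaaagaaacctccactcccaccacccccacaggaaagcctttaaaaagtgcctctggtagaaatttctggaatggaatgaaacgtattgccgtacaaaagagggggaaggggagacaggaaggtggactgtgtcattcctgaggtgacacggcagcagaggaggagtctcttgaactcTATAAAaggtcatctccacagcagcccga
Myl9: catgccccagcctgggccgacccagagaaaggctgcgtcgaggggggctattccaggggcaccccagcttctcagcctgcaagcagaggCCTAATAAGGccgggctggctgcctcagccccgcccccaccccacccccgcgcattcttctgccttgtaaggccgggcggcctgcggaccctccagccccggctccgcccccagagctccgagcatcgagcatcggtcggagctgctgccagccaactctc
TATAAA lay 29 bases before the start in Krt20 and the CArG box of Myl9 lay 161 bases before it. On either strand, TATAAA was found in 12.4% of all 32851 promoters. Counted by gene, it was found in 8.86% of the 12898 tested genes with an entry, in 12.9% of the 365 called-higher genes, in 1 of 12 general epithelial genes and in 2 of 13 smooth muscle genes. A CArG box was found in 1.47% of all promoters, in 1.46% of the tested genes, in 2.74% of the called-higher genes, in 1 of 12 general epithelial genes and in 1 of 13 smooth muscle genes. A match is a description of letters and not a measured site.

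Goblet cell genes held the largest median difference of the epithelial lists. Of 12 genes of goblet and deep crypt secretory cells, 10 were called higher, with a median difference of 6.73, and the list summed to 652 to 7474 CPM in the rich and 1.26 to 99.6 in the poor libraries. Zg16, a lectin secreted with the mucus, held 66.9 CPM in WT distal 1, 133 in WT proximal 1, 156 in HSCR distal 2, 163 in HSCR proximal 3, 469 in HSCR distal 3 and 1820 in HSCR proximal 2, against 0 to 21.2 in the mucosa-poor libraries. Muc2, the gel-forming mucin, held 43.8 to 1030 CPM against 0 to 18.8. Tff3, the trefoil peptide of goblet cells, held 88.6 to 1850 CPM against 0.0949 to 15.1. Atoh1, which commits crypt cells to secretory fates, had a difference of 8.66 with 6.44 to 47.4 CPM against 0 to 0.322. Reg4 and Ang4 were not called: Reg4 held 8.52 CPM in HSCR proximal 3 and 17.9 in HSCR distal 1.

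Colonocyte genes varied more among the mucosa-rich libraries. Of 10 absorptive genes only Slc26a3 and Ceacam1 were called higher, although all 10 had higher means and the median difference was 4.83. Slc26a3, the chloride-bicarbonate exchanger, held 2.90 CPM in WT distal 1, 3.27 in HSCR distal 2, 6.65 in HSCR proximal 3, 10.1 in WT proximal 1, 16.2 in HSCR proximal 2 and 148 in HSCR distal 3, against 0 to 2.71 in the mucosa-poor libraries. Car1, a cytosolic carbonic anhydrase, held 1950 CPM in WT proximal 1 and 2150 in HSCR proximal 2, and 54.1 in HSCR distal 2, which lay below the 70.6 CPM of the mucosa-poor WT distal 2. Guca2a, the guanylin precursor, held 1200 CPM in HSCR proximal 2 and 9.94 in WT distal 1, below the 10.9 of HSCR distal 1. Ceacam1, an adhesion molecule of the brush border, held 62.7 to 699 CPM in the rich and 2.68 to 54.3 in the poor libraries.

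Hormone genes divided. Of 7 enteroendocrine genes tested, Pyy, Gcg and Neurod1 were called higher. Pyy, the peptide hormone of colonic L cells, held 4.67 CPM in WT proximal 1, 8.19 in HSCR proximal 3, 11.8 in HSCR distal 2, 12.8 in WT distal 1, 18.8 in HSCR distal 3 and 129 in HSCR proximal 2, against 0 to 1.83 in the mucosa-poor libraries. Tph1, which makes serotonin in enterochromaffin cells, had a difference of 6.29, but HSCR distal 3 held 0.350 CPM and the mucosa-poor WT proximal 4 held 1.04. Chga (chromogranin A) is made by neurons as well as endocrine cells and did not separate the classes, with 1.56 to 104 CPM in the rich and 0.0461 to 77.5 in the poor libraries. Cck, also a neuropeptide, had a difference of -2.85 with overlap.

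Tuft, stem and dividing cells were not separated as lists. None of 4 tuft cell genes tested was called, where 2.66% of all genes were called higher, and their median difference was -0.70. Dclk1, a kinase of tuft cells that neurons also make, held 5.44 to 227 CPM in the rich and 58.7 to 148 in the poor libraries. Of 8 crypt stem cell genes, 5 had higher means, all 5 of them in all 4 groups, beside 16.6% of all genes. The median difference was 1.47. Sox9 and Rnf43 were called higher and Lgr5 was not, with 0.534 to 9.68 CPM against 0 to 1.38. Smoc2, Ephb3 and Axin2, the members with the highest levels, had differences of -0.92, -0.32 and -0.12. All 15 cell cycle genes had higher means in the mucosa-rich libraries, with a median difference of 1.19 and no call, and the highest sum of all 16 libraries was 1496 CPM in the mucosa-poor HSCR distal 1. Top2a, the topoisomerase of replicating cells, held 17.1 to 75.3 CPM in the rich libraries and 203 in HSCR distal 1.

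Gene families were counted by symbol after the values were seen. Of 14 claudins, which seal tight junctions, 5 were called higher, of 7 mucins 3, and of 31 sulfotransferases and glutathione transferases, which conjugate xenobiotics, 7. Of 310 solute carriers 18 were called higher, beside 2.66% of all genes. Of 80 potassium channel genes 3 were called higher (Kcne3, Kcnq1 and Kcnn4), a share near that of all genes, and Kcnn2 was called lower, with a family median of -1.38. None of the 34 sodium and calcium channel genes was called, where 0.0537% of all genes were called lower, so that few calls could be awaited. Of these channel genes 18 were lower in the mucosa-rich libraries in all 4 groups. Of the potassium channels 41 were lower in all 4 groups, beside 18.4% of all genes. Saa1, an acute phase protein of the epithelium with near-identical paralogs, had a difference of 8.32 with 30.0 to 943 CPM against 0 to 5.40. Ugt2b34, a glucuronosyltransferase with close paralogs, and Pla2g10, a secreted phospholipase, had differences of 8.01 and 8.0. For Saa1 and Ugt2b34, reads shared between copies make the single values uncertain.

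**Figure D3:**
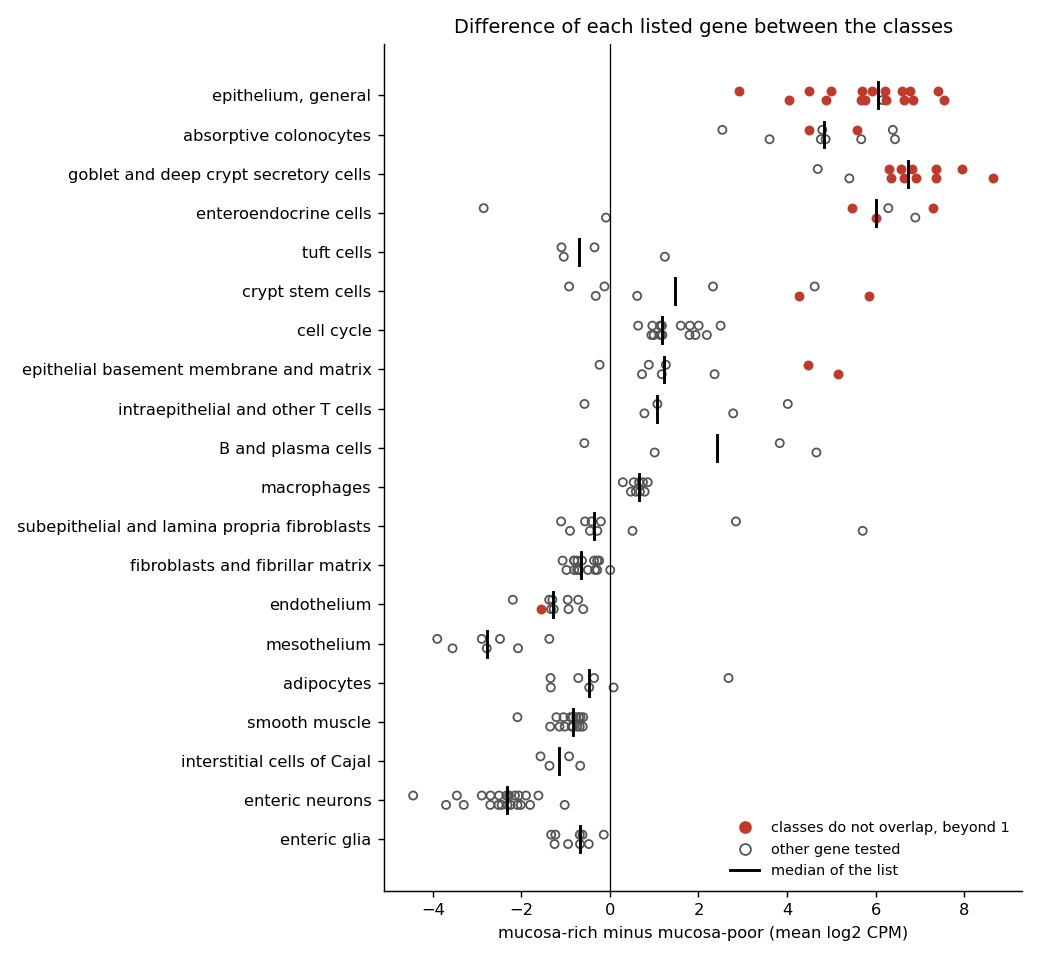
Difference of the mean log2 CPM (mucosa-rich minus mucosa-poor) of each tested gene in 20 cell type lists, with filled points for genes whose classes did not overlap and differed by more than 1, and bars at the list medians. The general epithelial and goblet lists lie to the right of 2.9, while the muscle, Cajal, neuron, glia, endothelial and mesothelial genes all lie left of 0.

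Genes of lamina propria cells overlapped between the classes. Of 5 T cell and 4 B and plasma cell genes tested none was called, where 2.66% of all genes were called higher. Their median differences were 1.07 and 2.42, and the T cell list summed to no more than 9.01 CPM in any mucosa-rich library. Itgae, the integrin of intraepithelial lymphocytes, held 0.753 to 2.54 CPM in the rich and 0 to 1.40 in the poor libraries. Igha, the constant region of IgA, held 0.129 CPM in HSCR proximal 3 and 16.8 in HSCR distal 2, and 3.90 at most in the mucosa-poor libraries. All 9 macrophage genes had higher means in the mucosa-rich libraries, with a median difference of 0.66 and wide overlap, as for the complement gene C1qb with 16.2 to 95.3 CPM against 12.5 to 52.2. The macrophage median was -0.07 among HSCR libraries alone. Of 10 genes of subepithelial fibroblasts none was called, beside the same share of all genes. Foxl1, a factor of the fibroblasts next to the crypts, was listed at 0 in all 8 mucosa-poor libraries and reached 9.42 CPM in the mucosa-rich ones, with a library at 0 among them. Tnc, Grem1 and Wnt5a, matrix and signalling genes with the highest levels of that list, had differences of -1.10, -0.20 and -0.41.

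Genes of the epithelial basement membrane and its receptors divided between the classes. Of 8 tested, Lamb3 and Itgb6 were called higher. Lamb3, a chain of laminin 332, held 9.74 CPM in HSCR distal 2, 10.7 in WT distal 1, 18.0 in WT proximal 1, 31.8 in HSCR proximal 3, 109 in HSCR distal 3 and 152 in HSCR proximal 2, against 0.286 to 5.01 in the mucosa-poor libraries. Itgb6, a chain of an epithelial integrin, held 1.81 to 20.7 CPM against 0 to 0.996. Lama3, another chain of laminin 332, had a difference of 2.36 and overlapped through WT proximal 1 and HSCR proximal 3. Sdc1 (syndecan-1), a proteoglycan of epithelia and plasma cells, held 33.8 to 205 CPM in the rich and 8.56 to 97.4 in the poor libraries, where HSCR distal 1 was the highest, and its difference was 1.26. Mmp7, a metalloproteinase of secretory epithelium, had too few reads to be compared, with 6.61 CPM in HSCR proximal 2 and no more than 1.12 elsewhere.

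Smooth muscle genes had lower means in the mucosa-rich libraries. All 17 had negative differences with a median of -0.84, or -0.34 without HSCR proximal 2. None was called, where 0.0537% of all genes were called lower, so that few calls could be awaited. Of them 7 were lower in all 4 groups, beside 18.4% of all genes. The list summed to 8540 CPM in HSCR proximal 2, 51470 in WT proximal 1, 57850 in HSCR distal 2, 62740 in HSCR proximal 3, 72450 in WT distal 1 and 99520 in HSCR distal 3. The mucosa-poor libraries ran from 44870 CPM in WT distal 2 to 140300 in HSCR proximal 4. Only HSCR proximal 2 lay outside the range of the mucosa-poor libraries. Myh11, the myosin heavy chain of smooth muscle, had the largest difference of the list, -2.09 (SD 1.81 in rich and 1.05 in poor libraries). It held 450 CPM in HSCR proximal 2, 1640 in WT distal 1, 2000 in WT proximal 1, 2120 in HSCR distal 2, 9500 in HSCR proximal 3 and 14000 in HSCR distal 3, and 2230 to 20300 in the mucosa-poor libraries. Acta2 and Actg2, the smooth muscle actins, had differences of -0.60 and -0.74. In bulk RNA, fewer cells of a type and less RNA per cell cannot be told apart. Scaled to the smooth muscle list itself, the median of all genes moved from -0.02 to 0.90, a shift that applies to all genes alike and sets the smooth muscle median, 0.11, near 0 by construction. On that scale the fibroblast median was 0.28, the glial median 0.26, the endothelial median -0.34, the neuronal median -1.39 and the mesothelial median -2.08.

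Enteric neuron genes had the lowest median of the lists apart from mesothelium. All 22 had negative differences, under the smooth muscle scaling as well, with a median of -2.33. Of them 17 were lower in all 4 groups, beside 18.4% of all genes. None was called, where 0.0537% of all genes were called lower, so that few calls could be awaited. The spread within the classes was wide. Of the list, Tac1, Penk, Slc5a7, Slc17a6 and Oprk1 had been named by the study as lower in HSCR, from these same proximal libraries. The mucosa-rich class held 4 HSCR and 2 WT libraries and the mucosa-poor class 3 and 5, so these members were not chosen independently. The list summed to 67.2 CPM in HSCR distal 3, 179 in HSCR distal 2, 180 in HSCR proximal 2, 185 in WT distal 1, 877 in WT proximal 1 and 3191 in HSCR proximal 3. The mucosa-poor libraries ran from 76.8 CPM in HSCR distal 4, from the segment that the study describes as aganglionic, to 5176 in WT proximal 3. The library labelled HSCR distal 1, of the same segment, held 1936 CPM, and the lower sum of the mucosa-rich HSCR distal libraries rested on it. In the HSCR proximal group the lower sum rested on HSCR proximal 2, since HSCR proximal 3 lay above the 2322 CPM of the mucosa-poor HSCR proximal 4. The count of genes lower in all 4 groups therefore leans on single libraries. Among WT proximal libraries the mucosa-rich library held 877 CPM and the 3 mucosa-poor ones 1943 to 5176. Nos1, the synthase of nitric oxide in inhibitory neurons, held 2.56 to 334 CPM in the rich and 1.08 to 581 in the poor libraries, and HSCR proximal 3 was the highest of the rich ones. Vip, an inhibitory neuropeptide, reached 1610 CPM in HSCR proximal 3, the highest of all 16 libraries. Uchl1, a deubiquitinase of neurons, had a difference of -1.80.

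Glial genes differed less. All 9 had negative differences with a median of -0.68, and 2 were lower in all 4 groups, a share near the 18.4% of all genes. WT proximal 1 held the highest sum of any library, 871 CPM. Sox10, the glial transcription factor, held 5.20 to 153 CPM in the rich and 5.07 to 173 in the poor libraries. Of 4 genes of the interstitial cells of Cajal, 3 were lower in all 4 groups, beside 18.4% of all genes, and the median difference was -1.14. Kit, their receptor tyrosine kinase, held 15.9 to 165 CPM against 52.1 to 409, and Etv1, a transcription factor of these cells, held 19.7 to 150 against 94.6 to 198. The mucosa-rich WT proximal 1 and HSCR proximal 3 held Etv1 within the range of the mucosa-poor ones.

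Vessel genes had lower means in the mucosa-rich libraries. All 10 endothelial genes had negative differences with a median of -1.28, and 9 were lower in all 4 groups, beside 18.4% of all genes. Tek, the angiopoietin receptor TIE2, was called lower. It held 3.86 CPM in HSCR proximal 3, 4.05 in HSCR proximal 2, 5.17 in WT distal 1, 5.50 in WT proximal 1, 6.95 in HSCR distal 2 and 8.87 in HSCR distal 3, against 10.1 to 24.1 in the mucosa-poor libraries. The difference was -1.55 (SD 0.46 in rich and 0.45 in poor libraries). Vwf, the von Willebrand factor, held 3.24 to 17.3 CPM against 16.4 to 114 and overlapped only through HSCR distal 3 and WT distal 2. Pecam1, a junction protein of endothelium, held 17.5 to 55.1 CPM against 36.2 to 167.

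Mesothelial genes had the lowest median of any list, -2.78, and all 7 were lower in all 4 groups, beside 18.4% of all genes. Mesothelium also makes keratins 8, 18 and 19, whose levels were higher in the mucosa-rich libraries. The list summed to 3.21 CPM in HSCR proximal 2, 10.7 in HSCR distal 2, 13 in WT distal 1, 63.6 in WT proximal 1, 165 in HSCR distal 3 and 221 in HSCR proximal 3, against 33.6 to 271 in the mucosa-poor libraries. Of the mucosa-rich libraries, 3 lay below every mucosa-poor library and 3 lay within their range. Upk3b, a uroplakin of mesothelium, held 0.803 to 37.0 CPM against 9.65 to 81.6, and Msln (mesothelin) was listed at 0 in HSCR distal 2 and held 110 CPM in HSCR proximal 3. Fibroblast genes overlapped widely. Of 16, 15 had negative differences with a median of -0.66, and Col3a1 and Fn1, which encode collagen III and fibronectin, had differences of -0.73 and -0.98. Of 44 collagen genes none was called, where 2.66% of all genes were called higher and 0.0537% lower, so that few calls could be awaited. Of these collagen genes 16 were lower in all 4 groups, beside 18.4% of all genes. Adipocyte genes showed no common direction, with a median of -0.47 in the difference of means and 0.07 when the 4 groups were terms of the fit.

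**Figure D4:**
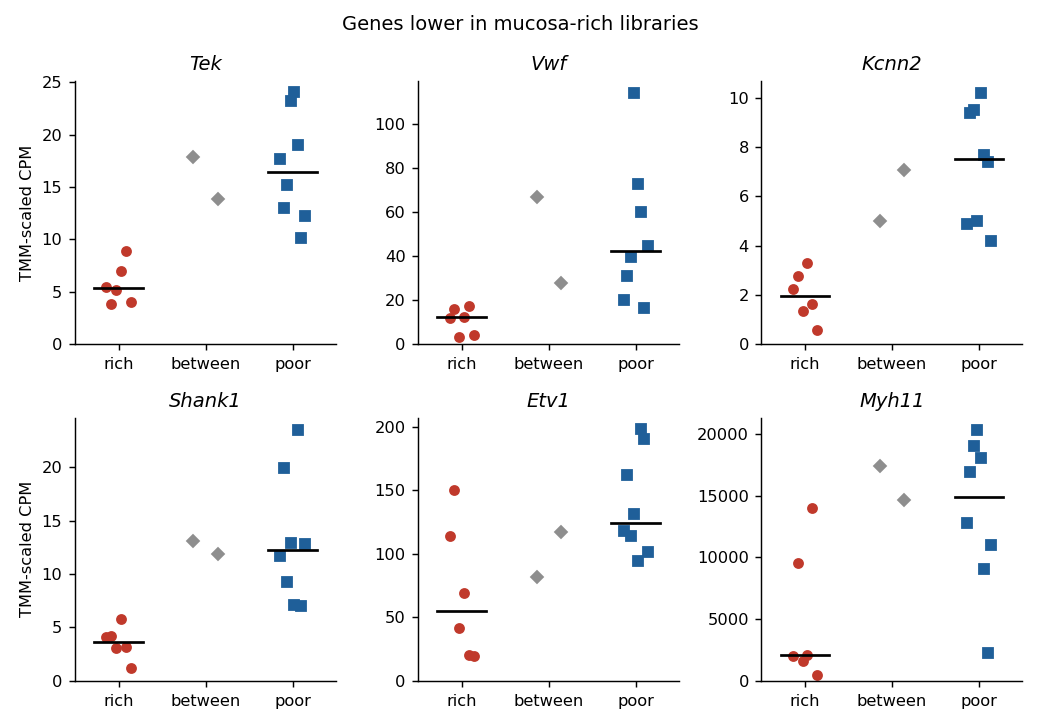
CPM (linear axes from 0) of 6 genes in mucosa-rich (circles, n = 6), between (diamonds, n = 2) and mucosa-poor (squares, n = 8) libraries, with bars at the class medians. Tek and Vwf are vessel genes, Etv1 is a Cajal cell gene and Myh11 a muscle gene, while Kcnn2 and Shank1 belong to no list. Tek, Kcnn2 and Shank1 do not overlap between the rich and poor classes, and the 2 between lie with the mucosa-poor libraries, while Vwf, Etv1 and Myh11 overlap.

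The other 9 genes called lower belonged to no list. In 1 draw of simulated counts with a wide spread between libraries (dispersion 0.5 for every gene), the same rule made 18 false calls in both directions together. With a dispersion of 0.05 it made 0. How many fell in each direction was not counted. The biological coefficient of variation of the data, the square root of the dispersion, was 0.794. With a spread as wide as the first of these, the 10 genes called lower cannot be told from false calls by their number. Kcnn2, a small-conductance calcium-activated potassium channel, held 0.584 to 3.31 CPM in the rich and 4.17 to 10.2 in the poor libraries, a difference of -1.99 (SD 0.89 and 0.50). Shank1 and Shank3, scaffolds of the postsynaptic density, held 1.17 to 5.80 against 6.97 to 23.5 CPM and 4.97 to 14.8 against 16 to 36.1 CPM. Shisa6, a regulator of glutamate receptors, and Myh3, an embryonic myosin, held under 1 CPM in all 6 mucosa-rich libraries and no more than 3.43 and 2.12 in the mucosa-poor ones, with differences of -4.31 and -3.88. The transcriptional activator Camta1 had a difference of -1.19, and Zfp94, Tmem44 and Inka2 had differences of -1.31, -1.07 and -1.01. The smooth muscle scaling, which raises all differences alike, left no gene called lower and 615 (3.3%) called higher. With CPM of the total, 9 genes were called lower, and only 4 of the 10 were among them. The count of lower genes rose to between 16 and 58 when WT proximal 1, HSCR proximal 3, HSCR distal 3, WT proximal 4, WT distal 2, HSCR distal 1 or HSCR distal 4 was left out, and at least 8 of the 10 were among them without any 1 library.

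The 2 libraries left out lay between the classes in their summed epithelial level, while most single genes did not lie in the gap. HSCR proximal 1 and WT distal 3 held 0.594% and 0.544% of their non-mitochondrial counts in the 495 genes. In HSCR proximal 1, 62 of the 495 lay within the range of the mucosa-rich libraries or above it, 200 in the gap between the classes and 233 at or below the highest mucosa-poor library. In WT distal 3 these numbers were 40, 197 and 258. Of the 10 genes called lower, 7 lay within the range of the mucosa-poor libraries or above it in HSCR proximal 1, where 2 lay in the mucosa-rich range, and 9 in WT distal 3. The smooth muscle list summed to 118400 and 106600 CPM in the pair, and neurons to 165 CPM in HSCR proximal 1 and 3199 in WT distal 3.

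The study compared HSCR with WT mice, and the classes were not even across that comparison. In the proximal colon Krt8 was 3.49 higher in HSCR than in WT libraries on the log2 scale (8.58 ± 2.68 against 5.09 ± 2.58, SD, n = 4 libraries each), which did not exceed the spread (exact permutation test, two-sided, p = 0.0857, where 0.0286 is the smallest p that 4 against 4 allow). The WT proximal libraries held 496, 15.1, 12.9 and 13.9 CPM of Krt8 and the HSCR proximal libraries 140, 3830, 706 and 56.0. All HSCR libraries thus lay above all WT libraries but 1, the mucosa-rich WT proximal 1. In the distal colon the difference was 0.73 (exact permutation test, two-sided, p = 0.686), and it was -0.29 without HSCR distal 3. Without HSCR proximal 2 the proximal difference was 2.38, and without WT proximal 1 it was 4.77.

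Across all genes, the quasi-likelihood test of edgeR, adjusted by Benjamini-Hochberg, called no gene between HSCR and WT proximal libraries at an adjusted p under 0.05 (0 of 18619), with 1314 (7.06%) at an unadjusted p under 0.05, and DESeq2 called 71. In that comparison all but 2 of the 495 genes had a higher mean in HSCR, 66 of them (13.3%) at an unadjusted p under 0.05, and their median log2 fold change was 2.56 against 0.09 for all genes. With the log2 CPM of Epcam as a covariate, the median of the 495 was -0.22, 202 were above 0, and 20 (4.04%) were at an unadjusted p under 0.05, beside 4.39% of all genes. Epcam is itself among the 495, all of which were higher in the same libraries. A median near 0 in this fit thus follows largely by construction. In the distal comparison the median was 1.10, and none of the 495 had an unadjusted p under 0.05, where 708 of all genes (3.8%) did.

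The genes were chosen on the same libraries, so that these counts are not independent of the choice, and the comparisons share libraries. Without the mucosa-rich libraries, 147 of the 495 (29.7%) had an unadjusted p under 0.05 in the proximal comparison, beside 6.18% of all genes, and 145 of these were higher in HSCR. In the distal comparison 12 did, beside 4.43%, and between WT distal and WT proximal libraries 125 did, beside 5.52%. Within the mucosa-poor libraries alone the numbers were 53 beside 1.56%, 5 beside 3.35% and 52 beside 4.84%. In the first of these the HSCR arm was HSCR proximal 4 alone, which is assumed to vary like the other groups. With the Epcam covariate 11 did in the distal comparison, beside 4.14%, and 52 between the WT segments, beside 6.05%. Among the mucosa-poor proximal libraries, HSCR proximal 4 held 187.7 CPM of the general epithelial list and WT proximal 2 to 4 held 50.3 to 86.6.

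**Figure D5:**
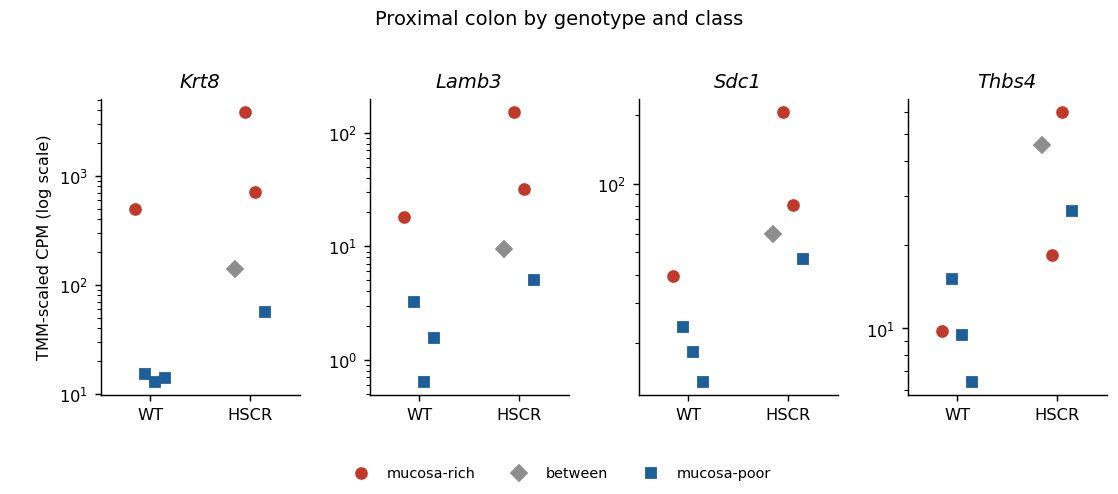
CPM (log axes) of Krt8, Lamb3, Sdc1 and Thbs4 in the 4 WT and 4 HSCR proximal libraries, marked by class. Krt8 and Lamb3 of the mucosa-rich WT library lie within the HSCR range and the 3 mucosa-poor WT libraries lie lowest. All 4 HSCR libraries lie above all 4 WT libraries for Sdc1 and Thbs4, which the study named from these libraries. The share of all genes that separate in this way was not counted. For each of the pair edgeR's adjusted p was 0.705 over all 16 libraries.

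The fits gave unequal values for matrix genes. The log2 fold change of Lamb3 between HSCR and WT proximal libraries was 3.09 (SE 1.56) over all libraries, 2.01 (SE 1.04) without the mucosa-rich ones and 0.06 (SE 0.85) with the Epcam covariate. That of Itgb6 was 3.25 (SE 1.80), 2.01 (SE 1.93) and -0.60 (SE 2.16) in the same order. Sdc1 kept a positive value in each, with 2.05 (SE 0.57), 1.53 (SE 0.58) and 1.11 (SE 0.50). Thbs4 (thrombospondin 4), a matrix glycoprotein, had 1.89 (SE 0.54), 1.81 (SE 0.53) and 1.30 (SE 0.55). Among genes lower in HSCR, Vcam1, a vascular adhesion molecule, had -1.48 (SE 0.38), -1.19 (SE 0.47) and -1.15 (SE 0.40), and Col9a2, a chain of collagen IX, -2.92 (SE 0.90), -2.98 (SE 0.76) and -2.18 (SE 0.97). None of these values passed edgeR's adjusted threshold in any of the fits, and the adjusted p ranged from 0.657 to 0.998. The fit without the mucosa-rich libraries kept 2 HSCR proximal libraries, one of them HSCR proximal 1, whose segment is in doubt.

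The neurotransmission genes that the study names had negative log2 fold changes in HSCR proximal libraries under each fit, and negative differences between the classes. The study named them from these same proximal libraries, so these signs are not independent of that choice. Tac1, which encodes substance P, held 0 to 28 CPM in the mucosa-rich and 0 to 371 in the mucosa-poor libraries. Penk, the enkephalin precursor, held 12.4 to 87.9 CPM against 22.1 to 648. Its log2 fold change between HSCR and WT proximal libraries was -2.79 (SE 1.07) over all libraries and -0.94 (SE 1.29) with the Epcam covariate. The kappa opioid receptor gene Oprk1, the choline transporter gene Slc5a7 and the vesicular glutamate transporter gene Slc17a6 had differences of -3.30, -2.34 and -3.46 between the classes. The mucosa-poor libraries that held most of Oprk1, Slc5a7 and Slc17a6 were WT proximal 2 to 4 and WT distal 4. Within the WT proximal libraries, the mucosa-rich one held 2.86 CPM of Oprk1 against 21 to 42.4 in the other 3, and 6.7 CPM of Slc5a7 against 16.3 to 98.2.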

How the data were processed

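RNA of 16 LMMP samples (poly-A libraries) was sequenced by the study. The deposited values are raw counts per gene, which the authors made by aligning reads to mm39 with HISAT2 2.2.1 and counting with featureCounts 2.0.6 against a GENCODE gene model, per the submitters' processing notes and the study's methods. The extract protocol describes strand-specific and non-specific preparation without saying which was used, so that overlapping genes cannot be told apart. A second deposited file holds the authors' own comparisons and was not used. The counts of 56748 genes were kept as deposited, and 23907 genes had no count. No pair of libraries was identical.

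Libraries were grouped by the titles and split by Lgals4 CPM of the total. Genes were filtered with filterByExpr over the 4 groups, library sizes were scaled by TMM, and log2 CPM used a prior count of 0.5. Standard errors and comparisons by label came from edgeR 4.0.16 quasi-likelihood fits over all 16 libraries, with Benjamini-Hochberg adjustment over all genes tested. Exact permutation tests were two-sided. Depth was 21384372 counts or more, and 3 counts set the floor of a library, which covers counting error only. Alternatives used DESeq2 1.42.0 in R 4.3.3, with limma 3.58.1 loaded beside edgeR. Permutations were run in R. Further tables used pandas 2.3.3, and figures were drawn with matplotlib 3.10.9 (Python 3.11.15, numpy 2.4.6). The steps were tested on simulated data.

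The classes, gene lists and alternatives were chosen with earlier results of these data known. Named were Lgals4, Krt8 and Ednrb, the 3 members of each list with the highest mean CPM, the 10 largest rises and falls among called genes, and the 10 genes the study names; every other gene named was chosen after its values were seen. Members of a list were those of known cell type markers. The neuron list holds Tac1, Penk, Slc5a7, Slc17a6 and Oprk1, and the basement membrane list holds Sdc1 and Mmp7. The study named all of these from the proximal libraries of this series. Promoters came from the RefSeq table on GRCm38.p6, another build than that of the counts, matched by symbol for 365 of the 495 genes called higher. Alternatives changed the scaling, the filter, the limits, the libraries and the tool. Of the genes this rule names, some are not reported here.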

Additional observations from a re-analysis of the deposited data

Results flagged for a closer look

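Of 46 checks for a library far from the others of its class, 4 were past Dixon's limit, where chance gives about 1 in 20. Among the mucosa-rich libraries, HSCR proximal 2 stood apart with an enteroendocrine sum of 333 CPM, against 24.6 to 42.2 in the other 5, and with a smooth muscle sum of 8540 CPM, against 51470 to 99520. Among the mucosa-poor libraries, WT distal 2 stood apart with a basement membrane sum of 42.9 CPM, and WT proximal 2 with a B and plasma cell sum of 0.0368 CPM.

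Epithelial signal was also present in the 2 libraries that entered no class. The general epithelial list summed to 564 CPM in HSCR proximal 1 and 427 CPM in WT distal 3, above the 324 CPM of the highest mucosa-poor library and below the 1427 CPM of the lowest mucosa-rich one.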

How the results depend on the processing

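Called genes, higher and lower, numbered 495 and 10. They numbered 429 and 9 with CPM of the total, 531 and 8 with non-mitochondrial CPM and 508 and 9 with DESeq2 size factors, and 615 and 0 with the smooth muscle scaling. Of the 495 genes, 413, 487, 495 and 461 were among those called higher, in the same order. Of the 10 lower genes, only 4 were among those called with CPM of the total, 7 with non-mitochondrial CPM and 9 with DESeq2 size factors. Without the size limit 19 were lower, with stricter Lgals4 limits 16, without HSCR proximal 1 and HSCR distal 1 16, and without HSCR proximal 2 and WT proximal 1 (chosen after seeing the data) 23. A split at the median Lgals4 gave 168 and 0. Within fewer libraries, where classes separate more easily, the counts were 1433 and 638 (proximal), 894 and 410 (distal), 988 and 411 (HSCR) and 1397 and 815 (WT). Leaving out 1 library at a time gave 483 to 573 higher and 10 to 58 lower.

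List medians that changed sign were tuft cells (0.59 in WT libraries), macrophages (-0.065 in HSCR libraries), adipocytes (0.074 with group terms, 1.13 in distal and 1.38 in WT libraries) and, under the smooth muscle scaling, which raises the median of all genes to 0.90 and so moves every list upward, subepithelial fibroblasts (0.59), fibroblasts (0.28), adipocytes (0.41), smooth muscle (0.11) and glia (0.26). Without 1 library the tuft median ran from -1.10 to 0.036 (positive without HSCR proximal 2), the adipocyte median from -1.13 to 0.59 (positive without HSCR proximal 3 or HSCR distal 4) and the distal Krt8 difference from -0.29 to 1.67.

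List medians that moved beyond the spread were those under the smooth muscle scaling (crypt stem cells 2.35, basement membrane 2.16, macrophages 1.6, endothelium -0.34, Cajal cells -0.20), in proximal libraries (absorptive 8.24, goblet 8.73, stem 2.36, T cells 2.99), in distal libraries (general epithelium 4.32, absorptive 1.94, goblet 5.01, stem 0.59), in WT libraries (T cells 3.09, macrophages 1.73), and for stem cells with group terms (0.84) and without HSCR proximal 2 and WT proximal 1 (0.86). The cause was not tested. The other list medians kept their direction under every alternative run.

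By label, edgeR called 0 genes in each comparison under every setting run. DESeq2 called 71 (HSCR against WT proximal), 33 (HSCR against WT distal) and 19 (WT distal against proximal). Deviations of libraries with the same replicate number correlated from -0.214 to 0.424, so that the numbers were not taken as pairs. With the replicate block edgeR called 0 genes, with 1243, 592 and 925 at an unadjusted p under 0.05, and the Krt8 differences stayed 3.49 and 0.73 (exact permutation p = 0.25 and 0.75).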

Other observations

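The mucosa-rich libraries differed among themselves in other genes as well. Hoxb13, a posterior homeobox gene, held 83.1, 85.6 and 151 CPM in the mucosa-rich distal libraries HSCR distal 2, WT distal 1 and HSCR distal 3, and no more than 3.92 CPM in the mucosa-poor distal ones. Of the mucosa-rich proximal libraries, WT proximal 1 and HSCR proximal 3 were listed at 0, and the library labelled HSCR proximal 2 held 37.0 CPM. Hoxd13 held 2.48 CPM in that library, against 115 to 210 in the mucosa-rich distal ones. Car1 held 2150 CPM there and 54.1 to 416 CPM in the mucosa-rich distal libraries. These genes were chosen after their values were seen.

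Several secretory and antimicrobial genes did not follow the order of the epithelial sum. Retnlb, a goblet cell peptide, held 18.6 CPM in WT proximal 1 and 2.19 in HSCR distal 2, while Saa1 held 30.0 and 419 CPM in the same libraries. Igha held 3.01 and 16.8 CPM in them. Cyp2c55, a cytochrome of colonocytes, held 23.8 to 361 CPM in the mucosa-rich proximal libraries and 0 to 14.4 in the distal ones.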
